A study of Mus musculus with 6 samples.

Results

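The genes of glycogen synthesis and breakdown were followed in differentiating primary brite adipocytes with and without knockdown (KD) of the long noncoding RNA *Ctcflos*. The members are 9 gene symbols of the deposited expression table, taken by name: *Gbe1*, *Gys1*, *Gyg*, *Pygb*, *Pygl*, *Ugp2*, *Pgm2*, *Ppp1r3c* and *Gsk3b*. All 9 were found, with 76 transcript accessions, among 52089 symbols in all. They were selected on their function and on the RPKM difference between KD and control, in which *Gbe1* was already known to be among the most lowered genes, so the KD differences of the members are a description and carry no test. Brite adipocytes are thermogenic fat cells that arise in white adipose tissue. The preadipocytes came from the stromal-vascular fraction of inguinal white adipose tissue of 129SvEv mice. They were induced for 2 days, differentiated for 1 day with rosiglitazone, a PPARγ agonist that promotes browning, and reverse transfected with 50 nM of an LNA gapmer, an antisense oligonucleotide that directs RNase H to its target RNA. The KD group of 3 libraries received the oligonucleotide ASO1 against *Ctcflos* transcript 1, the control group of 3 libraries a nontargeting oligonucleotide, and RNA was taken 24 h later. Because 1 targeting oligonucleotide was used, loss of *Ctcflos* and other effects of that oligonucleotide cannot be told apart. The labels do not say which libraries came from separate cultures, so p-values measure the spread between these libraries.

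Glycogen is a branched store of glucose. Phosphoglucomutase turns glucose 6-phosphate into glucose 1-phosphate, UGP2 makes UDP-glucose from it, glycogenin (GYG) starts the chain, glycogen synthase (GYS1 in most tissues, GYS2 in liver) lengthens it and the branching enzyme GBE1 adds the branches. Glycogen phosphorylase, with a liver form (PYGL), a brain form (PYGB) and a muscle form (PYGM), releases glucose 1-phosphate again. PPP1R3C, also called PTG, brings protein phosphatase 1 to glycogen, where it activates the synthase, and the kinase GSK3B inhibits the synthase. Adipose tissue holds little glycogen, and several of these genes are known targets of the hypoxia-inducible factors. In the table, *Pgm2* stands for the accession that RefSeq now names *Pgm1*, the main phosphoglucomutase, and *Pgm1* stands for the one now named *Pgm2*. The symbols of the table are kept here.

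Values are RPKM, that is, reads relative to transcript length and to library depth, averaged over all accessions of a symbol. The depth, recovered from the values of low transcripts, was 60.8 to 75.5 mio mapped reads in KD libraries and 62.9 to 79.2 mio in controls. *Ctcflos*, listed as 1300015D01Rik, had 0.0969, 0.0705 and 0.21 RPKM in KD and 0.748, 0.751 and 0.84 RPKM in control libraries, without overlap. The adipocyte label was borne out by *Adipoq* at 632 RPKM or more and *Fabp4* at 2829 RPKM or more in every library. All 6 adipocyte markers were lower in every KD library than in every control library, a pattern of 21.9% of all tested genes. They summed to 3948 to 5304 RPKM against 5602 to 6229 RPKM, although 1 of them (*Cebpa*) passed the test. The 6 brown or brite markers summed to 61.8 to 81.1 RPKM against 109 to 166 RPKM, mostly *Elovl3* and *Ucp1*. Of the 5 of these tested, 3 passed, all lower in KD (*Ucp1*, *Elovl3* and *Ppargc1a*), where 12.4% of all tested genes were lower. *Cidea* and *Cox7a1* overlapped between the groups and did not pass. The 5 macrophage markers summed to 6.64 to 16.2 RPKM in KD and 8.12 to 27.6 RPKM in control libraries, mostly *Lyz2*, and *Ptprc* stayed at 0.0486 RPKM or less. Against this sum, *Cd68* was higher in KD (log2 difference 1.05 ± 0.25, adjusted p = 0.0230, limma), and *Csf1r*, under the filter, had 1.10 to 1.48 RPKM in KD and 0.269 to 0.833 RPKM in control libraries. The 6 preadipocyte or stromal markers summed to 185 to 406 RPKM in KD and 282 to 456 RPKM in control libraries, mostly *Ly6a* at 152 to 413 RPKM. Of the 5 of them tested, 3 had a negative log2 difference and 1 passed, *Pdgfra*, lower in KD (-0.69 ± 0.12, adjusted p = 0.0104, limma). The 4 endothelial markers summed to 1.35 RPKM at most, and the 6 muscle markers to 1.29 to 4.82 RPKM, nearly all of it *Acta1* at 1.26 to 4.77 RPKM, with *Myh4* at 0 in all 6 libraries. The part of these marker shifts in the results was not tested, and fewer cells of a type and less RNA per cell cannot be told apart in bulk RNA.

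A library in each group stood apart in genes that respond to low oxygen. In 14 of 14 tested genes of a hypoxia-responsive list, KD replicate 3 was the lowest KD library and control replicate 2 the lowest control library, a pattern that 27.7% of all 11701 tested genes had. *Egln3*, an oxygen-sensing prolyl hydroxylase, had 18.4, 22.5 and 5.48 RPKM in KD replicates 1 to 3 and 27.7, 9.53 and 31.2 RPKM in control replicates 1 to 3. The same pair was lowest in 5 of the 9 members, *Pgm2*, *Ugp2*, *Gys1*, *Pygl* and *Ppp1r3c*. These libraries were not the pair of lowest depth, which was KD replicate 3 and control replicate 3. Of the macrophage markers, *Lyz2* was highest in the same libraries, with 12.8 RPKM in KD replicate 3 and 24.5 RPKM in control replicate 2 against 1.24 to 7.41 RPKM in the other four. Near the floor, *Adgre1* (0.138 and 0.345 RPKM) and *Ptprc* (0.00373 and 0.0486 RPKM) were also highest of their groups in KD replicate 3 and control replicate 2. *Cd68* and *Csf1r* were lowest of the KD group in KD replicate 3, at 2.16 and 1.10 RPKM, and highest of the controls in control replicate 2, at 1.92 and 0.833 RPKM. KD replicate 3 also had the most *Ctcflos* left of the KD libraries, at 0.21 RPKM against 0.0969 and 0.0705 RPKM. Of the KD libraries, it had the highest sum of adipocyte markers (5304 RPKM) and the lowest of brown or brite markers (61.8 RPKM). The part of these differences was not tested. The labels name no batch for these libraries, and the log2 differences of the members and the calls of the wider list are given with and without this pair, a choice made after seeing the data.

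**Figure D1:**
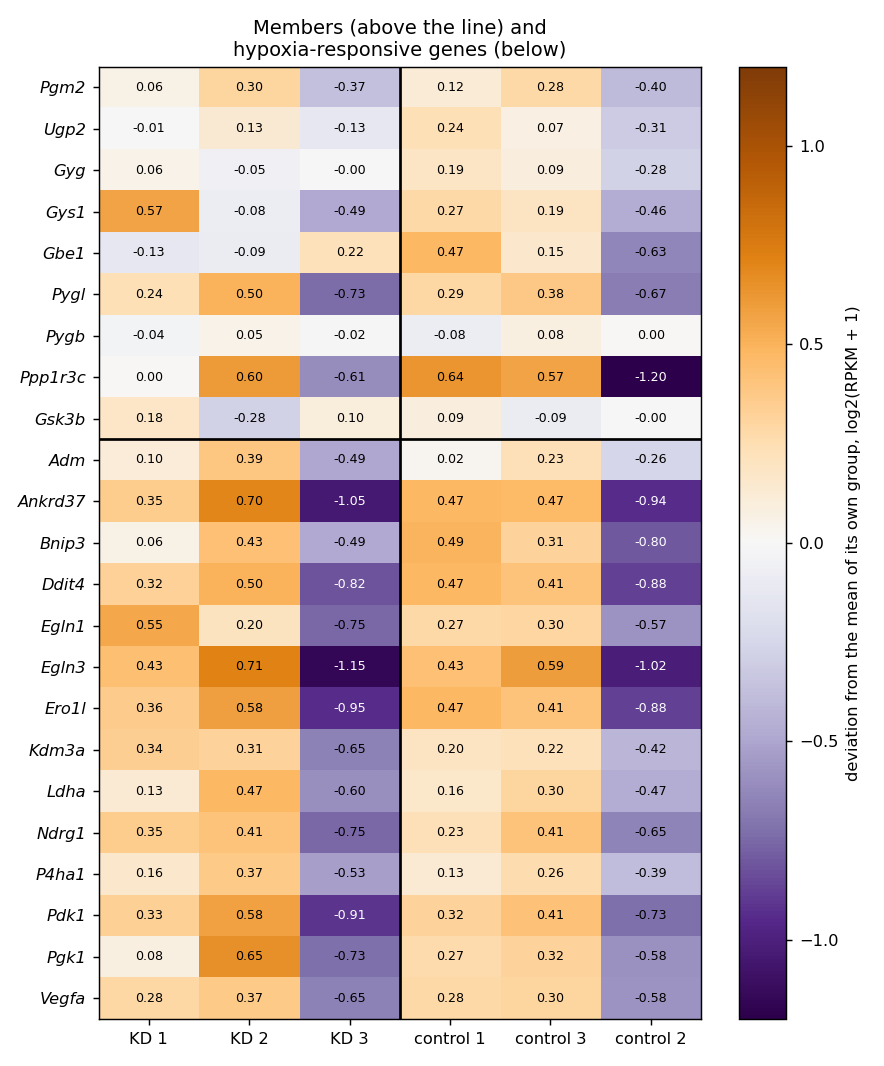
Deviation of each library from the mean of its own group on the log2(RPKM + 1) scale, for the 9 members above the horizontal line and the 14 tested hypoxia-responsive genes below it. KD replicate 3 and control replicate 2, the third and the last column, are the lowest of their groups in all hypoxia-responsive genes and in 5 members, while *Gbe1* was highest of its group in KD replicate 3.

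The promoters of 3 members are shown because these genes differed in how they followed that pair of libraries: *Gbe1* followed it in controls but not in KD, and *Ppp1r3c* and *Pygl* in both groups. Each runs from 250 bases before to 50 bases after a RefSeq start (GRCm38.p6), 5′ to 3′, and the capitals mark ACGTG, the core of the hypoxia response element, and the related GCGTG on either strand. A CACGTG, the E-box core, holds ACGTG on both strands.
Gbe1 (chr16:70313699-70313998, plus strand): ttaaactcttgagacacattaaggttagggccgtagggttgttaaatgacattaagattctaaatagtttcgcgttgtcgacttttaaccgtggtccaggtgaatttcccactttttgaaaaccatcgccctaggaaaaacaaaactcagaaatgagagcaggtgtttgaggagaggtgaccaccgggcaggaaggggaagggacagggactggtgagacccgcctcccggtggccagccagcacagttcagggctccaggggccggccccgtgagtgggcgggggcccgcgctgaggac
Ppp1r3c (chr19:36736555-36736854, minus strand): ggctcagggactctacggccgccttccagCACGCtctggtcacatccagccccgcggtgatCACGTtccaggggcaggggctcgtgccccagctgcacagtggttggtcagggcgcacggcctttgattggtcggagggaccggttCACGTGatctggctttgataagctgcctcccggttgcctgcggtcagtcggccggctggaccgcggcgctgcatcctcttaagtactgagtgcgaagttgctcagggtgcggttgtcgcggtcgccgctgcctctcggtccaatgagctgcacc
Pygl (chr12:70227634-70227933, minus strand): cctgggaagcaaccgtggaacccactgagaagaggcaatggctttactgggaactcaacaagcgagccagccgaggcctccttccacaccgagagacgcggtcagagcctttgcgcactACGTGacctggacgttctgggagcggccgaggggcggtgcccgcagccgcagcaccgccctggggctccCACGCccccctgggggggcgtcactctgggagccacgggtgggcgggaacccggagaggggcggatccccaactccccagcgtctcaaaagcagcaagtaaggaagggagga

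No match lies in the window of *Gbe1*, while *Ppp1r3c* has 4 matching positions, of which 2 form a CACGTG, and *Pygl* has 2. Of the 9 members, 6 have ACGTG in a promoter window (*Pgm2*, *Ugp2*, *Gyg*, *Pygb*, *Pygl* and *Ppp1r3c*), *Gsk3b* has GCGTG alone, and *Gbe1* and *Gys1* have neither. *Ugp2* also has a second window, without a match. Over 32851 promoter windows of the same length, 19.6% hold ACGTG, 32.4% GCGTG, 43.8% either and 7.15% CACGTG. These shares are by window, while the members are counted by gene. *Pgm2* and *Ugp2*, with matches, followed the pair of libraries in both groups. *Gys1* followed it without a match in its window, and *Gyg*, with 3 matching positions, followed it in controls alone. *Pygb*, with 2 matching positions, and *Gsk3b*, with 1, followed it in neither group. These matches are letters in a window, not sites of binding.

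In control cells, the members spanned a wide range of levels. On the RPKM scale of 1 curated RefSeq transcript per gene, which is per length, *Pgm2* was the most abundant at 80.0 ± 18.9 RPKM (SD, n = 3), followed by *Gyg* at 31.9 ± 5.42 RPKM. *Ugp2* (23.1 ± 4.90 RPKM), *Gbe1* (22.9 ± 8.89 RPKM), *Gys1* (20.3 ± 5.44 RPKM), *Ppp1r3c* (18.6 ± 10.6 RPKM) and *Pygl* (12.4 ± 4.54 RPKM) came next. *Gsk3b* (4.99 ± 0.462 RPKM) and *Pygb* (3.04 ± 0.208 RPKM) were the lowest. Of neighbours in this order, the control libraries did not overlap between *Pgm2* and *Gyg*, *Pygl* and *Gsk3b*, and *Gsk3b* and *Pygb*, and all other neighbours overlapped. The enzymes that supply and start the chain thus stood above the phosphorylases in the control mean.

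**Figure D2:**
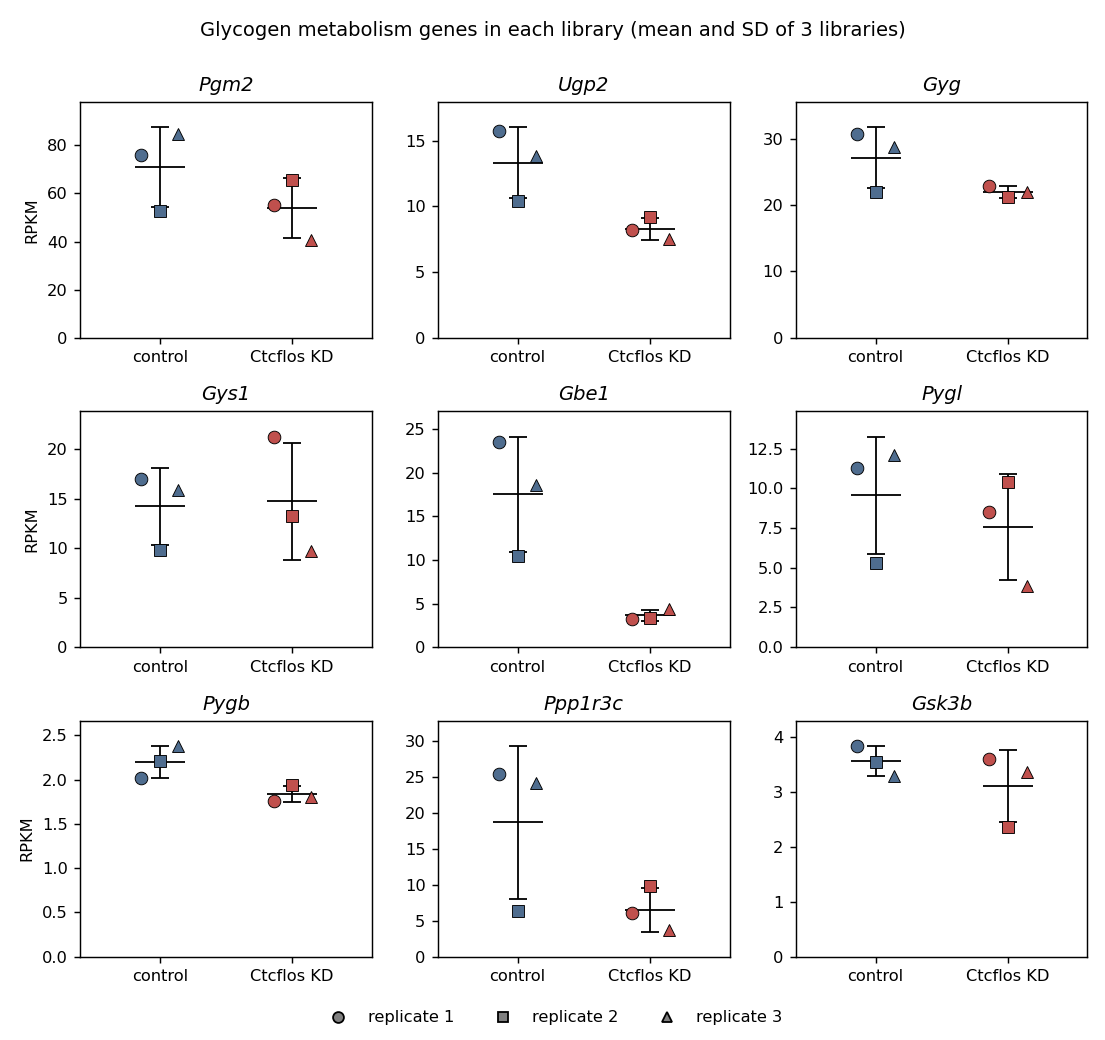
RPKM (mean over accessions) of the 9 members in each library, controls on the left and *Ctcflos* KD on the right of each panel, with the mean and SD of 3 libraries in black. All axes start at 0, and the groups are apart in *Ugp2*, *Gbe1* and *Pygb* and overlap in the other 6.

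*Gbe1*, the branching enzyme, had the lowest log2 difference of all 11701 genes tested. It had 3.21, 3.33 and 4.37 RPKM in KD replicates 1 to 3 and 23.6, 10.4 and 18.7 RPKM in control replicates 1 to 3. The groups were thus far apart, and the KD mean was 20.7% of the control mean. The log2 difference, on the log2(RPKM + 1) scale used throughout, was -1.94 ± 0.26 (SE, n = 3 per group). Every SE of a log2 difference in this text is that of the limma fit, which draws the variance of each gene toward a trend over all genes. In genes that vary more than this trend, it is smaller than the SE of their own libraries alone. KD replicate 3 was the highest of its group and control replicate 2 the lowest of its group, so the pair that stood apart brought the groups closer. KD replicate 3 had 0.419 times the level of control replicate 2, and the mean of the other KD libraries was 0.155 times that of the other controls. Without the pair, the log2 difference was -2.36, but this also leaves out the KD library with the most *Ctcflos* left.

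The difference ran through all transcripts of *Gbe1*. All 12 of its accessions, which overlap and share reads, were lower in every KD library than in every control library, with KD means of 18.2% to 32.4% of control. Transcript ENSMUST00000023393, of 2846 bases, was covered by 844, 897 and 982 reads in KD and 6873, 3014 and 4319 reads in control libraries, so counting error is small beside the spread between libraries. The shallowest fall, to 32.4% of control, was in the clone AK013167 with a control mean of 5.41 RPKM. *Gbe1* lies on chromosome 16 from 70313949 to 70569716 (GRCm38, plus strand) and spans 256 kb. Genes of 200 kb or more had a median log2 difference of -0.57 (n = 245, 61.2% of them called lower), against 0.08 in genes under 10 kb (n = 2715, 5.82% called lower). The span thus moves with the difference of genes in this comparison, and its part in *Gbe1* was not tested.

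**Figure D3:**
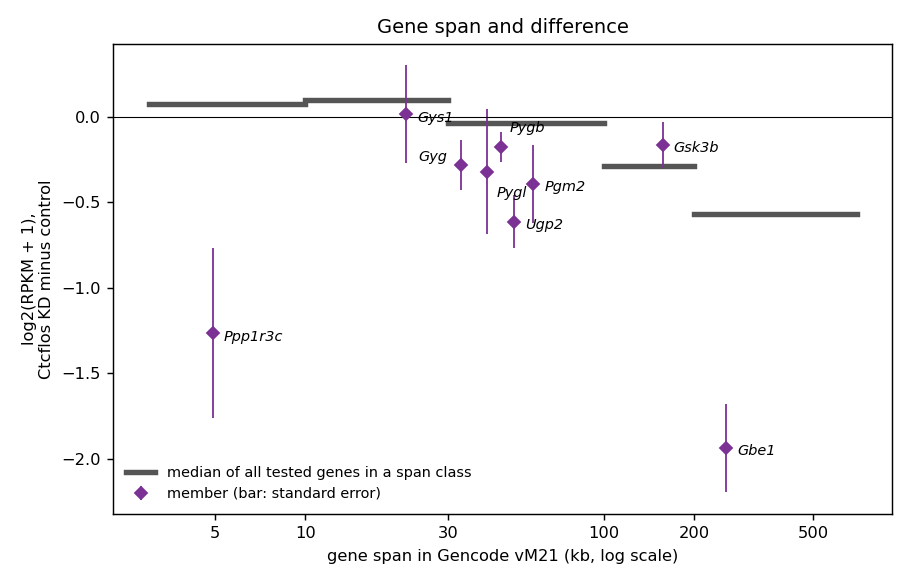
Log2 difference (KD minus control, log2(RPKM + 1)) of the 9 members against gene span in kb on a log axis, with SE bars, and the median of all tested genes in 5 span classes as grey lines (the first from 0 and the last without an upper end). *Gbe1* is far below the median of its class at -1.94 against -0.57, and *Ppp1r3c*, of 4.92 kb, lies at -1.27 where its class has a median of 0.08.

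The other members of chain synthesis differed less. *Gys1*, the glycogen synthase of most tissues, had 21.3, 13.2 and 9.71 RPKM in KD and 17.0, 9.78 and 15.9 RPKM in control libraries. The KD range enclosed the control range, and the log2 difference was 0.02 ± 0.29 (SE). Its direction depended on the libraries, from -0.27 without KD replicate 1 to 0.26 without KD replicate 3, and it was 0.03 without the pair that stood apart. *Gyg*, which primes the chain, had 22.9, 21.2 and 21.9 RPKM in KD and 30.7, 22.0 and 28.7 RPKM in control libraries. The KD libraries lay close together, and control replicate 2 lay within their range. The log2 difference of *Gyg* was -0.28 ± 0.14 (SE), and -0.42 without the pair.

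Of the enzymes that supply UDP-glucose, *Ugp2* had 8.21, 9.15 and 7.48 RPKM in KD and 15.7, 10.4 and 13.8 RPKM in control libraries. The groups did not overlap, with a KD mean of 62.1% of control and a log2 difference of -0.61 ± 0.16 (SE). All 6 of its 9 accessions with a mean of at least 1 RPKM were lower without overlap. *Pgm2*, the main phosphoglucomutase, had 55.3, 65.5 and 40.7 RPKM in KD and 75.9, 52.6 and 84.6 RPKM in control libraries. Control replicate 2 was below KD replicates 1 and 2, so the groups overlapped, and the log2 difference was -0.39 ± 0.23 (SE). Without the pair it was -0.41 in *Pgm2* and -0.70 in *Ugp2*.

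The differences of the phosphorylases were small beside that of *Gbe1*. *Pygl* had 8.48, 10.4 and 3.84 RPKM in KD and 11.3, 5.32 and 12.1 RPKM in control libraries. The spread inside each group, with KD replicate 3 at 0.407 times the mean of the other KD libraries and control replicate 2 at 0.455 times that of the other controls, was larger than the log2 difference between groups of -0.32 ± 0.37 (SE). Without KD replicate 3 the difference of *Pygl* turned to 0.05, and without the pair it was -0.29. *Pygb* had 1.76, 1.94 and 1.80 RPKM in KD and 2.02, 2.21 and 2.38 RPKM in control libraries. It was lower in every KD library, with a small log2 difference of -0.17 ± 0.09 (SE), or -0.16 without the pair, and neither library of the pair was lowest in its group.

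The composition of the phosphorylase pool followed the libraries that stood apart more than the KD. *Pygl* made up 78.8% ± 7.77 (SD, n = 3) of the summed RPKM of *Pygl*, *Pygb* and *Pygm* in controls and 77.5% ± 9.69 in KD, on 1 RefSeq transcript each. Its share was 69.8% in control replicate 2 and 66.4% in KD replicate 3 and from 82.3% to 83.8% in the other four. The muscle form *Pygm* made up 0.482% at most. In the synthase pool, *Gys2*, the liver form, made up 16.8% ± 1.67 of *Gys1* and *Gys2* in controls and 9.53% ± 4.28 in KD, and each KD library was below each control library. Of the 2 GSK3 forms, *Gsk3b* made up 55.4% ± 3.67 in controls and 50.8% ± 6.30 in KD, with overlap.

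Among the regulators, *Ppp1r3c* had the largest difference after *Gbe1*, rank 33 from the lowest of all genes, and the widest spread. It had 6.08, 9.73 and 3.63 RPKM in KD and 25.4, 6.39 and 24.1 RPKM in control libraries. Control replicate 2 lay within the KD range, while the other controls were above every KD library. The log2 difference was -1.27 ± 0.50 (SE), and -1.56 without the pair. KD replicate 3 had 0.569 times the level of control replicate 2, and the mean of the other KD libraries was 0.319 times that of the other controls. The first ratio is 1 library against 1, joined after seeing the data and not matched by the labels. *Gsk3b*, with a span of 157 kb, had 3.59, 2.35 and 3.36 RPKM in KD and 3.84, 3.55 and 3.28 RPKM in control libraries. The groups overlapped, with a log2 difference of -0.16 ± 0.13 (SE), or -0.21 without the pair, where genes of 100 to 200 kb had a median of -0.28.

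Counted together, 8 of the 9 members had a negative log2 difference, with a median of -0.32 against 0.03 over all genes tested. As a description and not as a test of the members, the limma fit over all genes placed *Gbe1* and *Ugp2* among the lower genes at its threshold and no member among the higher ones, where 12.4% of all genes were called lower and 11.5% higher. In 3 members (*Gbe1*, *Ugp2* and *Pygb*) the groups did not overlap, each time with the KD libraries below the controls, a pattern of 21.9% of all genes. Groups without overlap in either direction made up 44.8% of all genes, and 22.9% of all genes had the KD libraries above. Nothing is read from these counts, since the comparison chose the members. Without the pair that stood apart, the fit placed *Gbe1*, *Ugp2*, *Gyg* and *Ppp1r3c* (4 members) among the lower genes. There, 39.1% of all genes were past the threshold in either direction, 2148 of 11701 lower and 2429 higher, and nothing is read from this count either.

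A wider list of 48 other genes of glycogen and glucose 6-phosphate metabolism was set beside the members. Of these, 34 had a mean of at least 1 RPKM and were tested, 12 were lower in KD, 1 was higher and 21 did not pass (limma-trend, adjusted p under 0.05 over all genes). In all genes, 12.4% were lower and 11.5% higher, and 24.0% were called in either direction. The median log2 difference of the list was -0.15, against 0.03 in all genes. The calls of the list depended on the libraries, as did those of all genes. Lower calls came to 6 without KD replicate 1, 5 without KD replicate 2, 2 without control replicate 1, 6 without control replicate 2 and 1 without control replicate 3, and to 12 without KD replicate 3 or without the pair. Over all genes, lower calls were 1454 with all libraries and 719, 647, 289, 958 and 239 in the first 5 of these settings. They were 2083 without KD replicate 3 and 2148 without the pair, with 11563 to 11751 genes tested. Without the pair, 5 genes of the list were higher in place of 1, where 2429 of all 11701 genes were higher in place of 1349. The 5 genes were *Pgm1* of the table and 4 genes that did not pass with all libraries: *Akt1* at 0.41 (adjusted p = 0.0160, and 0.00804 to 0.206 over 13 alternatives), *Prkab1* at 0.57 (0.00643, range 0.00219 to 0.199), *Stbd1* at 0.74 (0.00568, range 0.00377 to 0.172) and *Hk1* at 0.64 (0.0255, range 0.0182 to 0.735), all by limma.

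*Slc2a4*, the insulin-responsive glucose transporter GLUT4, was the most lowered gene of the wider list. It had 4.48, 4.51 and 5.62 RPKM in KD and 14.7, 9.60 and 13.8 RPKM in control libraries. As in *Gbe1*, KD replicate 3 was the highest of its group and control replicate 2 the lowest, and the groups did not overlap. The log2 difference was -1.21 ± 0.17 (SE, adjusted p = 0.00558, limma), and the adjusted p stayed between 0.00125 and 0.0405 in 13 alternatives. Without the pair it was -1.47. *Slc2a4* is also an adipocyte gene, and the KD libraries were below the controls in all 6 adipocyte markers given above, of which 1 passed the test. *Slc2a1*, the basal transporter GLUT1, had 16.1, 14.5 and 4.81 RPKM in KD and 14.0, 6.77 and 14.5 RPKM in control libraries, and did not pass (log2 difference -0.08 ± 0.43, adjusted p = 0.912, limma). It was lowest in the pair that stood apart in both groups.

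*Gys2*, the liver form of glycogen synthase, had 1.69, 1.93 and 2.13 RPKM in KD and 4.61, 3.21 and 4.06 RPKM in control libraries. It was lower in KD without overlap (log2 difference -0.76 ± 0.13, adjusted p = 0.00871, limma), and 12 of 13 alternatives kept the call, with an adjusted p of 0.0521 without control replicate 3. Of the kinases upstream of the synthase, *Akt2* was lower (-0.63 ± 0.13, adjusted p = 0.0154, limma), while *Akt1* did not pass with all libraries at 0.32 ± 0.11. *Prkag1* and *Prkag2*, regulatory subunits of the AMP-activated kinase, were lower at -0.61 ± 0.16 and -0.38 ± 0.12 (adjusted p = 0.0290 and 0.0498, limma). Its catalytic subunit *Prkaa1* (0.24 ± 0.10) and its subunit *Prkab1* (0.41 ± 0.14) did not pass with all libraries. The 1 higher gene was *Pgm1* of the table, the minor phosphoglucomutase, at 0.35 ± 0.11 with an adjusted p of 0.0499 (limma), which only 4 of 13 alternatives kept. With *Pgm2* it formed a pool of which it made up 2.04% ± 0.686 in controls and 3.76% ± 0.382 in KD (SD, n = 3).

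Among the breakdown genes, *Phkb*, a regulatory subunit of phosphorylase kinase, was lower at -0.44 ± 0.12 (adjusted p = 0.0343, limma). The lysosomal glucosidase *Gaa* (-0.40 ± 0.14) did not pass, nor did *Phkg2* (-0.06 ± 0.10). Of 4 tested subunits of protein phosphatase 1, the glycogen-targeting *Ppp1r3d* was lower at -0.60 ± 0.16 (adjusted p = 0.0289, limma), and the catalytic subunits *Ppp1ca* (-0.01 ± 0.12) and *Ppp1cb* (0.02 ± 0.14) did not pass. *Ppp1r3b*, a targeting subunit like *Ppp1r3c*, had 17.7, 19.3 and 5.81 RPKM in KD and 22.5, 6.15 and 22.8 RPKM in control libraries. It was low in the same pair of libraries, and its groups overlapped (log2 difference -0.21 ± 0.55). *Stbd1*, which tethers glycogen for autophagy, did not pass with all libraries at 0.64 ± 0.21 (adjusted p = 0.0590, limma), and its partner *Gabarapl1* was lower at -0.34 ± 0.11 (adjusted p = 0.0493, limma).

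In the galactose branch, which feeds UDP-glucose, *Galm* was lower (-0.58 ± 0.14, adjusted p = 0.0245, limma), and *Galk1* and *Galt* did not pass. *Ugdh* and *Ugcg*, which use up UDP-glucose, did not pass either. *Uggt1*, a glucosyltransferase of the endoplasmic reticulum that uses UDP-glucose, was lower at -0.57 ± 0.10 (adjusted p = 0.00915, limma). Of the genes of glucose 6-phosphate, *G6pc3* was lower at -0.32 ± 0.09 (adjusted p = 0.0407, limma), and *Slc37a4* (-0.14 ± 0.09), *Hk1* (0.46 ± 0.33) and *Hk2* (0.05 ± 0.27) did not pass with all libraries. Without control replicate 1 or control replicate 3, *Akt2* and *Uggt1* no longer passed, with 11 of 13 alternatives keeping each. *Phkb*, *Prkag1*, *Prkag2*, *Ppp1r3d*, *Gabarapl1*, *G6pc3* and *Galm* each no longer passed when KD replicate 1, KD replicate 2, control replicate 1 or control replicate 3 was left out. None of them passed with no filter on low values, and all but *Ppp1r3d* also failed without control replicate 2. Of 13 alternatives, *Gabarapl1* kept the call in 4, *Prkag2* and *G6pc3* in 5, *Phkb* in 6, *Prkag1* and *Galm* in 7 and *Ppp1r3d* in 8. The 14 genes under the filter had means of 0.036 to 0.911 RPKM, among them *Phka1* and *Phka2*, both lower in every KD library, and *Ppp1r3a*, higher in every KD library at 0.434, 0.448 and 0.355 RPKM against 0.212, 0.115 and 0.0664 RPKM.

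**Figure D4:**
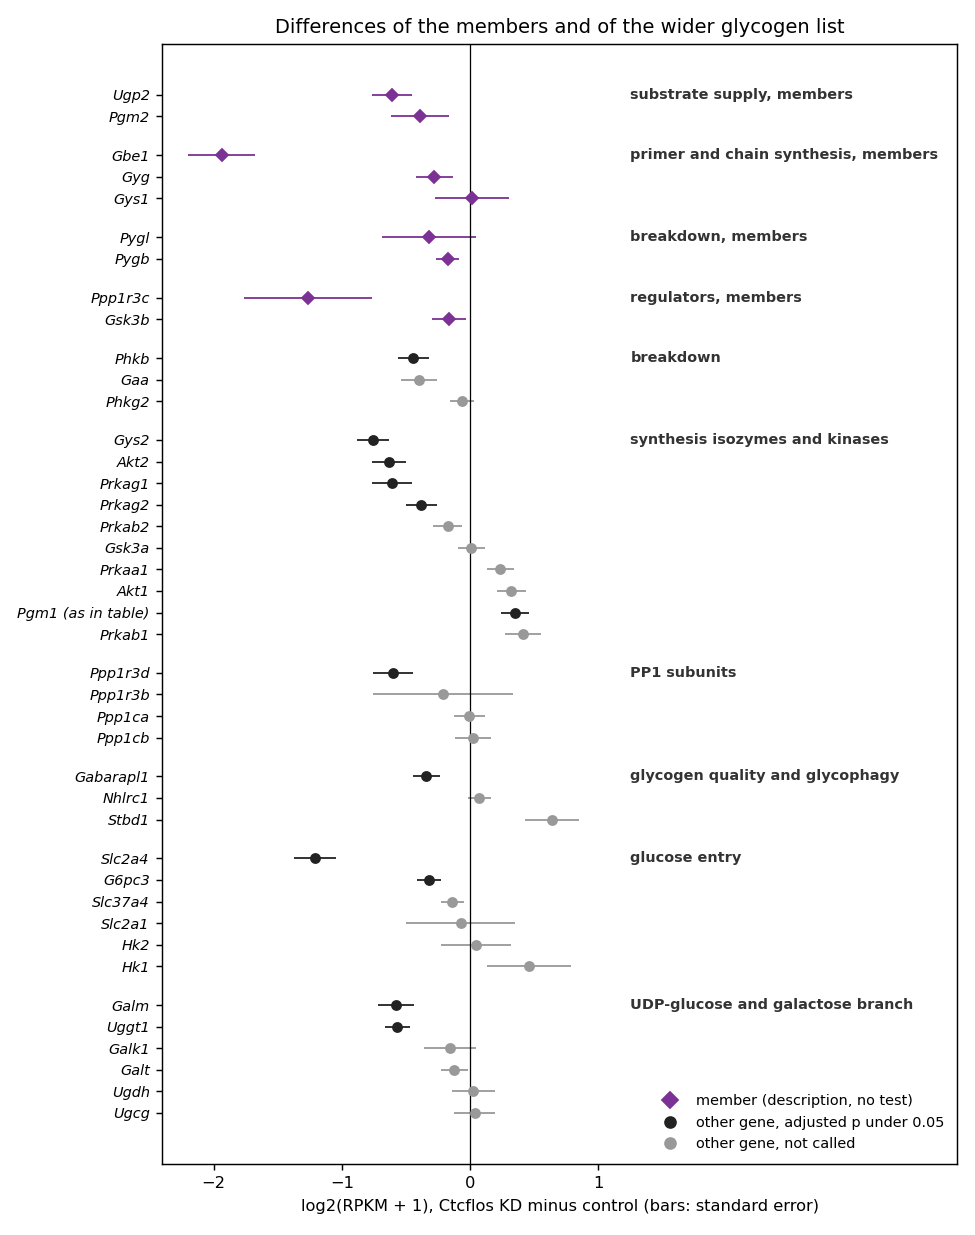
Log2 difference (KD minus control, log2(RPKM + 1)) with SE bars for the 9 members, shown as diamonds without a test, and for tested genes of the wider list, in groups by role. Genes of the wider list with an adjusted p under 0.05 are black and the others grey, *Slc2a4* at -1.21 is the farthest left of them, and *Gbe1* at -1.94 is the farthest left of all genes shown.

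The genes whose profile over the 6 libraries was most like that of *Gbe1* were sought among 239 non-members with an absolute log2 difference of at least 1. The nearest were *Slc2a4* (Pearson r = 0.998 on log2(RPKM + 1)), *Reep1*, an endoplasmic reticulum shaping protein (0.996), *Ngfr*, a neurotrophin receptor (0.987), *Scn7a*, a sodium channel (0.983), and *Sned1*, a matrix protein (0.983). These values are over 6 libraries in 2 groups and so describe mostly the step between the groups, which chose *Gbe1*. *Reep1* had 0.753, 0.943 and 0.996 RPKM in KD and 3.95, 2.18 and 3.61 RPKM in control libraries. All 5 genes shared with *Gbe1* the lowest control in replicate 2 and the highest KD library in replicate 3, an order that the choice by correlation over these libraries favours.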

How the data were processed

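The authors deposited 1 table of RPKM values for 168326 transcript lines, normalised to transcript length and mapped reads, from stranded total RNA libraries. How it was counted, and whether by strand, is not given in the sources used here. After 305 exact repeats were removed, the RPKM values of all accessions of a symbol were averaged to a gene value. Differences were fitted with limma-trend (limma 3.58.1, R 4.3.3) on log2(RPKM + 1) over 11701 genes of mean RPKM at least 1, in 3 KD against 3 control libraries, two-sided, with Benjamini-Hochberg adjustment over all genes and calls at an adjusted p of 0.05. The SE given with each log2 difference is the moderated one of this fit. A pseudocount of 1 understates the change of low genes. The fit was tested on simulated data. Tables were handled with Python 3.11.15 and pandas 2.3.3. Depth was recovered from Ensembl transcripts of known Gencode length, where at least 96.1% of low values were whole multiples of 1 read within a tolerance of 0.1 reads. Gencode vM21 (GRCm38) gave spans for 80.5% of tested genes, 471 of them through an older symbol, and RefSeq the promoters, which matched all 9 members. Some genes of the wider list enter its counts and are not reported by name here.

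The members and lists were chosen with earlier results of these data known. The text names the members, *Ctcflos*, genes of the wider list and the 5 genes most like *Gbe1* by Pearson correlation among non-members with an absolute log2 difference of at least 1. Markers and hypoxia-responsive genes come from their lists, and those given with values were chosen after seeing them. Alternatives were a pseudocount of 0.1, no filter, scaling by the median of ratios, curated RefSeq accessions alone, the most abundant accession, a replicate block, an adjusted p of 0.01, each library left out and, added after seeing the data, the pair that stood apart left out.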

Additional observations from a re-analysis of the deposited data

How the results depend on the processing

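The 9 log2 differences of members moved by less than the spread between replicates in all 117 values under alternatives, although *Gys1* and *Pygl*, which were not called, changed sign in some. This says little about stability. The fits with no filter or with a replicate block cannot change a log2 difference. Leaving out 1 of 3 libraries shifts a group mean by only part of the spread of that group. Over all genes, 2803 were called, against 1807 (of 38335 tested) with no filter on low values, 523 at an adjusted p of 0.01, 4577 without the pair of libraries that stood apart, and 369 to 4810 with 1 library left out. The 2 members called became 1 with no filter, 4 without the pair, and 1 to 3 with 1 library left out. The 12 lower calls of the wider list became 5 with no filter, 3 at an adjusted p of 0.01 and 1 to 12 with 1 library left out. Its 1 higher call became 0 with scaling by the median of ratios or at an adjusted p of 0.01, 4 with curated RefSeq accessions alone, 5 without the pair, and 0 to 5 with 1 library left out. The 1 call of the hypoxia-responsive list (*Adm*, lower) became 0 with a pseudocount of 0.1 or no filter, 4 without the pair, and 0 to 2 with 1 library left out. The cause of these moves was not tested. For single genes of the wider list, 330 values under alternatives kept their side of the threshold and their direction, 65 no longer passed and 14 newly passed. The other 33 changed sign, in 9 genes that passed neither before nor after. With scaling by the median of ratios, *Gsk3a* came to -0.016, *Ppp1cb* to -0.010 and *Ugdh* to -0.0043, and *Ugcg* came to -0.022 with curated RefSeq accessions alone and with the most abundant accession. Without the pair, *Gsk3a* came to -0.022, *Ppp1cb* to -0.10 and *Slc2a1* to 0.10. With 1 library left out, the range was -0.065 to 0.050 in *Gsk3a*, -0.79 to 0.30 in *Ppp1r3b*, -0.048 to 0.047 in *Ppp1ca*, -0.061 to 0.13 in *Ppp1cb*, -0.40 to 0.42 in *Slc2a1*, -0.17 to 0.33 in *Hk2*, -0.31 to 0.044 in *Galk1*, -0.090 to 0.18 in *Ugdh* and -0.061 to 0.21 in *Ugcg*.

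The labels give both groups the numbers 1 to 3. Over 11701 genes, libraries that share a number deviated from the mean of their group with correlations of 0.29, -0.29 and -0.42. The highest correlations were between replicate 1 of both groups (0.29), KD replicate 2 and control replicate 3 (0.50), and KD replicate 3 and control replicate 2 (0.42). Each of these was the highest of both its libraries. The labels do not say what such libraries share. In the fit with a replicate block, 1671 genes, 1 member, 0 higher genes of the wider list and 0 hypoxia-responsive genes were called. That block joins libraries by number, so apart from replicate 1 it does not join those that deviated alike, and no fit that joins them was run. Depth limits *Ctcflos* itself, whose longer Ensembl transcript had 5 to 28 reads in KD and 102 to 125 in control libraries.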
